A study of Mus musculus with 9 samples.

Results

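Dazap2, Tmem123, Ankrd52 and Taf9b are among the genes whose RNA was lowest, relative to mock transfection, in mouse embryonic stem (ES) cells given a miR-294 mimic. They were selected on that difference, and the probe sets annotated to them were then followed across all groups. Each gene had 1 probe set of its own (Dazap2 10426921, Tmem123 10583145, Ankrd52 10367305 and Taf9b 10606315), so the 4 genes were read by 4 probe sets out of 19938 genes named on the array. All 4 passed the filter on dim probe sets, as did 13182 genes in all. Because the miR-294 and mock arrays chose them, the differences between those groups are given as a description, with no test. The comparison of let-7c with mock is not the difference that chose them, although it shares the mock arrays, and is tested. The genes were chosen with earlier results of these data known. Whether their let-7c values had a part is not recorded, so the test is not shown to be independent of the choice.

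The series holds 3 groups of 3 arrays. The cells of all groups were Dgcr8 -/- ES cells. They were transfected with the miR-294 mimic (50 nM), with the let-7c mimic (50 nM) or mock transfected, kept without leukaemia inhibitory factor (LIF) and harvested after 12 h. The labels call the replicates biological and do not say whether separate clones were used, so the p-values measure the spread between these samples. A mimic of unrelated sequence was not among the groups, and effects of transfecting any small RNA cannot be told apart from those of the microRNA in the comparisons with mock.

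Dgcr8 helps the nuclease Drosha to cut microRNA precursors out of their primary transcripts, and cells without it make few mature microRNAs of their own. A mimic enters at a later step, on the Argonaute proteins. There the seed, bases 2 to 8 of the microRNA, pairs with matching sites, mostly in the 3′ untranslated region, and the transcript is destabilised or translated less. The miR-290 family, to which miR-294 belongs, is abundant in normal ES cells, whereas let-7 is abundant in differentiated cells.

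The mature strand of miR-294 and the other mature mouse microRNAs in the RefSeq table (GRCm38.p6) with the same bases 2 to 8 are shown because this seed sets which transcripts the family can pair with. Capitals mark the seed, and 5 microRNAs with it were found. The search did not cover every chromosome, so the list may be incomplete. The labels do not state the mimics' sequences, so these are the natural strands.
miR-294-3p (chr7:3220691-3220712, plus strand): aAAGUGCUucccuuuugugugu
miR-291a-3p (chr7:3218968-3218989, plus strand): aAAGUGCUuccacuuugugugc
miR-295-3p (chr7:3220815-3220837, plus strand): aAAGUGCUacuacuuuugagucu
miR-302b-3p (chr3:127545275-127545297, plus strand): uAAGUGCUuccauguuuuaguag
miR-302d-3p (chr3:127545665-127545687, plus strand): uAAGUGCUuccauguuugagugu
A transcript that pairs with this seed over all its bases carries AGCACUU. For comparison, the strand of let-7c, encoded at both chr16:77599672-77599693 and chr15:85706616-85706637 (plus strand), has another seed, whose full match is CUACCUC.
let-7c-5p: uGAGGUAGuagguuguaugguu
The precursor hairpin of miR-294, whose excision needs Dgcr8, is shown with its mature strand in capitals (chr7:3220641-3220724, plus strand).
Mir294 hairpin: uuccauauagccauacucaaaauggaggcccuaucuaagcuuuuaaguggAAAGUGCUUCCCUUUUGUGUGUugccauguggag
The transcripts' own sequences were not used here, so whether the 4 genes carry such sites was not examined.

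Within each group, arrays correlated with r of at least 0.995, and array medians lay between 7.36 and 7.41 on the log2 scale. All values below are the deposited values, read as log2 intensities. All 10 ES cell markers (Pou5f1, Sox2, Nanog and others) were above the 40th percentile of their array on every array. Of 6 fibroblast markers, which feeder cells would carry, 4 were above it and Postn and S100a4 were below it on every array. The mean over the ES cell markers was 11.9 to 11.98 with miR-294, 11.63 to 11.64 with let-7c and 11.80 to 11.85 with mock. That over the fibroblast markers was 7.11 to 7.23, 7.0 to 7.28 and 7.03 to 7.18 in the same groups. Among all tested genes 41.9% were called with miR-294 and 28.7% with let-7c, in either direction, at an adjusted p under 0.05 against mock. With miR-294 5 of the 10 ES cell markers rose and 1 fell, and with let-7c 6 fell and 0 rose. Of the 4 fibroblast markers tested, Col3a1 rose with miR-294 (0.16, adjusted p = 0.0372), and 0 passed with let-7c. The part of such shifts in the differences below was not tested. Fewer cells of a kind and less RNA per cell cannot be told apart in such bulk samples.

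Dazap2, a small proline-rich protein first found as a partner of the germ cell RNA-binding protein DAZ, stood lowest of all genes tested relative to mock. It read 9.09, 9.24 and 9.32 on the miR-294 arrays, 11.59, 11.65 and 11.61 on the let-7c arrays and 11.54, 11.60 and 11.60 on the mock arrays. The miR-294 arrays lay 2.22 below the lowest mock array at the nearest, while the let-7c and mock arrays overlapped. The group mean was 9.22 ± 0.12 for miR-294, against 11.58 ± 0.03 for mock (SD of log2 values, n = 3 each), a difference of -2.36 ± 0.06 (SE), which leaves 19.4% of the mock level.

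Tmem123, also called porimin, is a heavily glycosylated membrane protein of the sialomucin kind. Its values were 8.82, 8.82 and 8.73 with miR-294, 10.60, 10.71 and 10.75 with let-7c and 10.65, 10.61 and 10.68 with mock. Again only the miR-294 arrays stood apart, by at least 1.79 from the mock arrays, and the other groups overlapped. The mean of 8.79 ± 0.05 with miR-294 against 10.65 ± 0.03 with mock gave a difference of -1.85 ± 0.05, or 27.7% of the mock level.

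Ankrd52 encodes an ankyrin-repeat regulatory subunit of protein phosphatase 6, which removes phosphate groups from Argonaute proteins. Its arrays read 8.12, 8.08 and 8.08 with miR-294, 9.92, 9.76 and 9.99 with let-7c and 9.96, 9.87 and 9.84 with mock. The let-7c arrays spanned the mock arrays on both sides, whereas the miR-294 arrays lay at least 1.72 below every mock array. The means were 8.10 ± 0.03 with miR-294 and 9.89 ± 0.06 with mock, a difference of -1.80 ± 0.06 (28.8% of the mock level).

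Taf9b, a paralog of Taf9, encodes a histone-fold subunit of the transcription factor complexes TFIID and SAGA. It read 6.30, 6.24 and 6.35 with miR-294, 7.80, 7.84 and 7.92 with let-7c and 7.99, 8.09 and 8.15 with mock. Here the 3 groups did not overlap, with miR-294 lowest, let-7c next and mock highest. The mean was 6.30 ± 0.06 with miR-294 and 8.08 ± 0.08 with mock, a difference of -1.78 ± 0.06 (29.1% of the mock level). On 0 of the 3 miR-294 arrays was Taf9b above the 40th percentile of its array, which lay between 6.87 and 6.90, while it was above it on all let-7c and mock arrays. It therefore passed the filter through the groups in which it is high. The deposited values carry no detection call, so its reading with miR-294 is not shown to be above background, and its difference and rank are those of the readings.

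**Figure D1:**
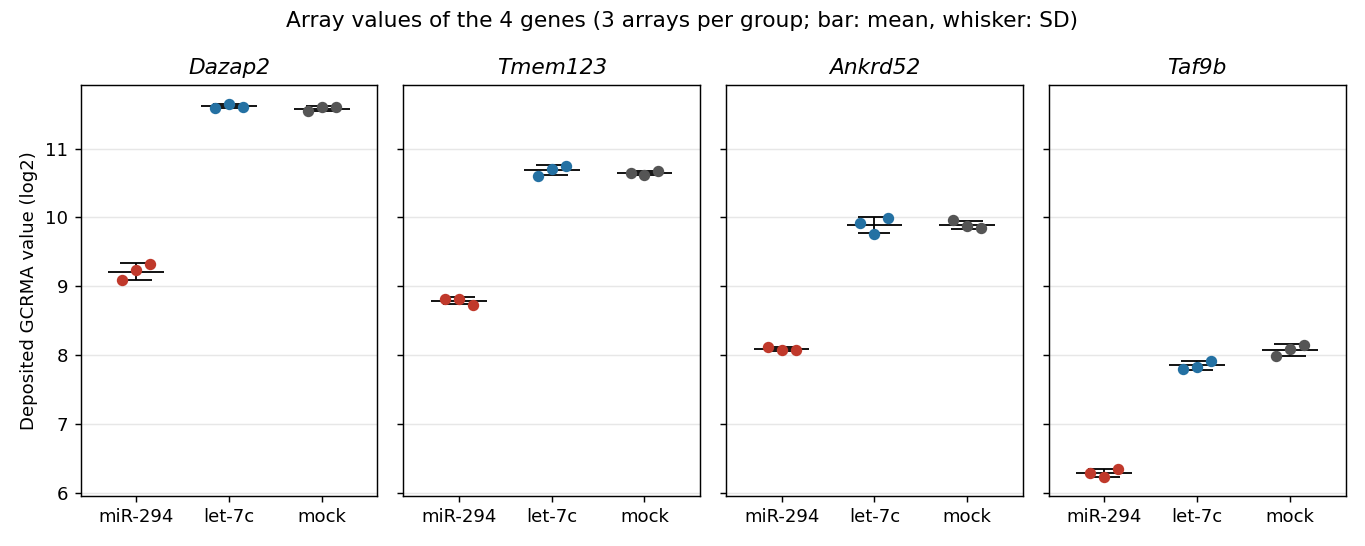
Deposited log2 value (vertical axis) of each gene on each of the 9 arrays, with miR-294, let-7c and mock from left to right; each point is an array, the bar the group mean and the whisker the SD (n = 3). The miR-294 arrays lie at least 1.64 below the mock arrays for all 4 genes. Only for Taf9b do the let-7c and mock points not overlap, and the share of all tested genes without such overlap was not computed. Levels of different probe sets are not comparable.

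Set against let-7c in place of mock, with the same miR-294 arrays, the 4 genes were again lower with miR-294. The difference of miR-294 from let-7c was -2.40 ± 0.06 for Dazap2, -1.89 ± 0.05 for Tmem123, -1.80 ± 0.06 for Ankrd52 and -1.56 ± 0.06 for Taf9b (log2, SE). In the order of these differences Dazap2 and Tmem123 kept ranks 1 and 4, while Ankrd52 stood at rank 9 and Taf9b at rank 21.

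Among all tested genes ordered by the difference of miR-294 from mock, the 4 genes held ranks 1, 4, 5 and 6. All 4 were at least 2-fold lower than mock, as were 93 of the 13182 tested genes (0.706%); since this difference chose them, nothing is read from the count. The call rule used below for other genes, an adjusted p under 0.05 in either direction, took 41.9% of all tested genes in this comparison, and 21.1% were called lower. The genes between them were Uchl1 (-2.12 ± 0.06), for a ubiquitin hydrolase, and Tbc1d8b (-2.11 ± 0.06), for a TBC-domain protein. Just below Taf9b came 9530068E07Rik (-1.68 ± 0.04) and the interferon-inducible GTPase gene Irgm1 (-1.54 ± 0.08). Irgm1 read 6.90, 7.10 and 6.90 with miR-294, near the 40th percentiles of those arrays (6.865, 6.866 and 6.899), so its level there is near the filter line.

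**Figure D2:**
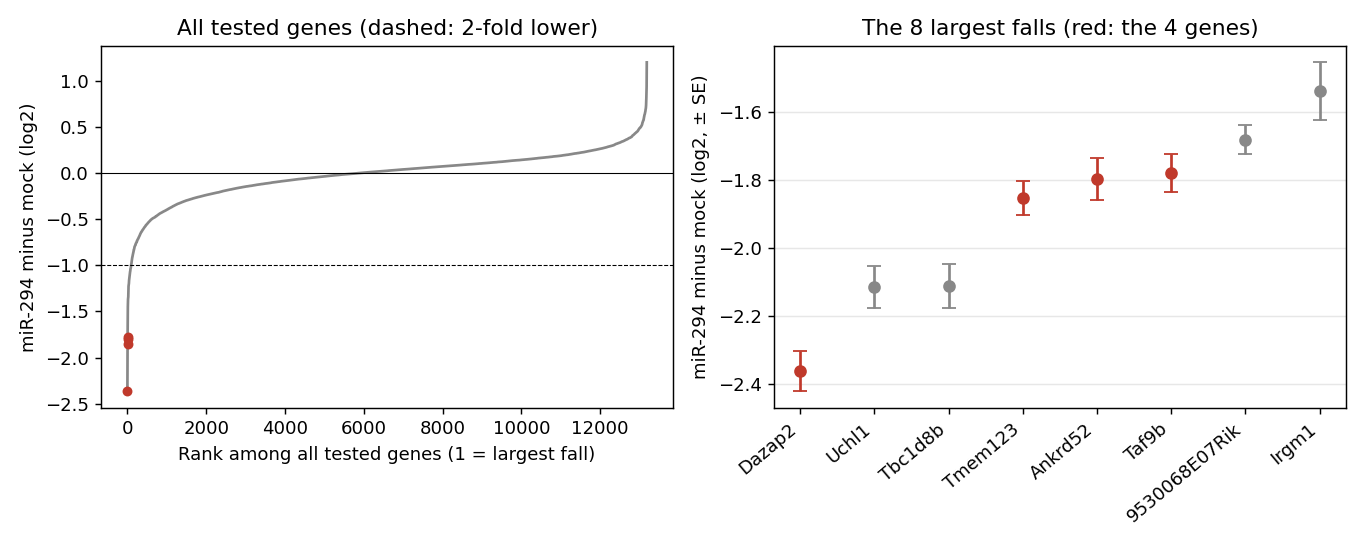
Left, difference of miR-294 from mock (log2) for all 13182 tested genes in rank order, with the 4 genes in red and the 2-fold line dashed; right, the 8 largest falls with their SE. Dazap2 lies at -2.36, apart from Tmem123, Ankrd52 and Taf9b, which lie between -1.85 and -1.78.

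Within groups the 4 genes were as steady as the array in general. The SD pooled over the 3 groups was 0.0736 for Dazap2, 0.0564 for Tmem123, 0.0801 for Ankrd52 and 0.0690 for Taf9b, against a median of 0.0717 over all tested genes. The widest group was the miR-294 group for Dazap2 (SD 0.12) and the let-7c group for Ankrd52 (SD 0.12).

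The comparison of let-7c with mock asks whether a mimic with another seed moved the same transcripts. Dazap2, Tmem123 and Ankrd52 did not pass the threshold, and Taf9b was lower. In this comparison 28.7% of all tested genes were called, 14.8% as lower, so 1 call among 4 genes is near that background. Dazap2 averaged 11.62 ± 0.03 with let-7c and 11.58 ± 0.03 with mock, a difference of 0.04 with a 95% interval of -0.09 to 0.17 (adjusted p = 0.684). Tmem123 averaged 10.69 ± 0.08 with let-7c and 10.65 ± 0.03 with mock (0.04, interval -0.07 to 0.15, adjusted p = 0.604). For Ankrd52 both means were 9.89, with a difference of 0.00 and an interval of -0.14 to 0.14 (adjusted p = 0.995). All 3 intervals lie within 0.17 of 0.

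Taf9b averaged 7.85 ± 0.06 with let-7c and 8.08 ± 0.08 with mock (SD, n = 3 each). It fell by 0.22 (SE 0.06), to 85.8% of the mock level, with a 95% interval of -0.35 to -0.10 (adjusted p = 0.0134), and each let-7c array lay below each mock array. The call rests on the highest mock array: without mock replicate 3 the difference was -0.18 and the adjusted p 0.0567, the highest over the alternatives (lowest 0.0045). The mock arrays also took part in choosing the gene. How many of all tested genes separate in this way between let-7c and mock was not counted.

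**Figure D3:**
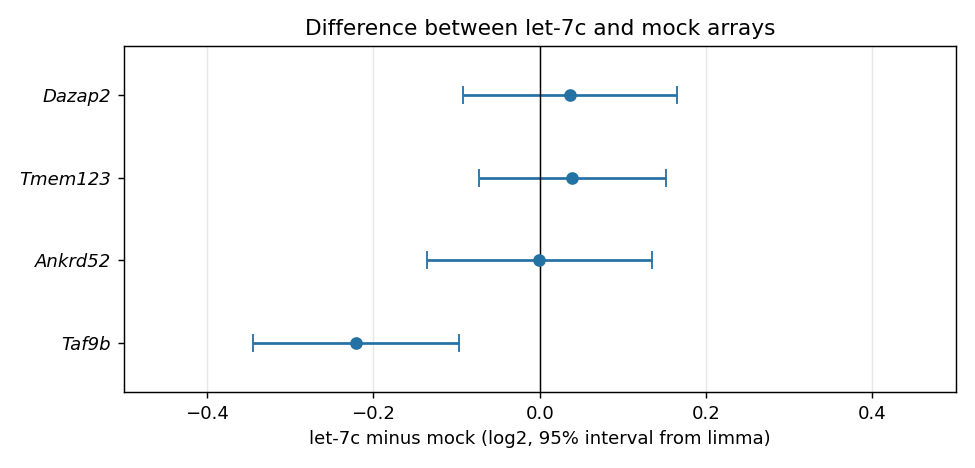
Difference of let-7c from mock (log2, horizontal axis) for the 4 genes, with the 95% interval from limma. The intervals of Dazap2, Tmem123 and Ankrd52 include 0, and that of Taf9b runs from -0.35 to -0.10.

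Taf9, the closest relative of Taf9b, stood at 10.27, 10.30 and 10.23 with miR-294, 9.89, 10.23 and 10.18 with let-7c and 10.11, 10.32 and 10.23 with mock. The 3 groups overlapped, and Taf9 did not pass the threshold with miR-294 (0.05 ± 0.08, adjusted p = 0.685) or with let-7c (-0.13 ± 0.08, adjusted p = 0.288). These readings of Taf9 rest on probe set 10512061 alone, and where in the genome it maps was not checked. A further probe set is annotated to both Ak6 and Taf9. It was not attributed to either, and its values are not given here. Whether the probes of Taf9b and Taf9 also bind each other's transcript was not tested.

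The other subunits of the complexes of Taf9b were called about as often as genes in general with miR-294. Of 31 subunits of TFIID, which brings RNA polymerase II to promoters, and of the histone-modifying complex SAGA, 10 rose, 4 fell and 17 did not pass the threshold with miR-294, beside the 41.9% called among all genes. Their median difference was 0.05, against 0.02 over all genes. Kat2b, a SAGA-type acetyltransferase, read 9.39, 9.36 and 9.24 with miR-294 and 10.21, 10.17 and 10.11 with mock. It fell by 0.83 (SE 0.05, adjusted p = 6.35e-07). The scaffold gene Taf5l fell by 0.67 (SE 0.07, adjusted p = 2.33e-05), to 9.18, 9.33 and 9.15 with miR-294, against 9.90, 9.97 and 9.80 with mock. Sgf29 (0.49), which encodes a reader of histone methylation, and Atxn7l3 (0.45), for a subunit of the deubiquitinating module, rose most.

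With let-7c 4 of the 31 subunits rose, 7 fell and 20 did not pass, beside 28.7% called and 14.8% called lower among all genes. The median was -0.06, against 0.02 over all genes. Taf5l fell most, by 0.83 (SE 0.07, adjusted p = 1.66e-05), followed by Taf5 (-0.45), Atxn7l3 (-0.42) and the acetyltransferase gene Kat2a (-0.34). Kat2b did not pass the threshold with let-7c (0.02 ± 0.05, adjusted p = 0.772). Taf5l is thus a subunit gene that was lower than mock with both mimics, in comparisons that share the mock arrays.

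Ankrd52 works with the phosphatase subunit Ppp6c, with the Sit4-related subunits Ppp6r1 to Ppp6r3 and alongside the paralogs Ankrd28 and Ankrd44. The phosphatase acts on Argonautes, which the kinase Csnk1a1 phosphorylates. Of 10 tested genes of this list, 6 fell with miR-294, 0 rose and 4 did not pass, with a median of -0.23; 21.1% of all genes were called lower. Ppp6c, the catalytic subunit, read 9.64, 9.52 and 9.50 with miR-294, 10.52, 10.58 and 10.53 with let-7c and 10.65, 10.57 and 10.57 with mock. Ppp6c fell by 1.04 (SE 0.05, adjusted p = 1.03e-07) with miR-294 and did not pass with let-7c (-0.05 ± 0.05, adjusted p = 0.454).

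The Argonaute gene Ago1 was at 9.49, 9.44 and 9.44 with miR-294, 10.51, 10.57 and 10.58 with let-7c and 10.79, 10.84 and 10.82 with mock. It fell by 1.36 (SE 0.04, adjusted p = 5.49e-09) with miR-294 and by 0.26 (SE 0.04, adjusted p = 0.00116) with let-7c. Ago3 fell by 0.39 and Ago2 by 0.33 with miR-294. Csnk1a1 fell by 0.14 (adjusted p = 0.0172), a call that ended when miR-294 replicate 2 (0.0624), mock replicate 1 (0.0506) or mock replicate 2 (0.0581) was left out; the lowest over the alternatives was 0.000992. Of the paralogs of Ankrd52, Ankrd44 fell by 0.46 (SE 0.07, adjusted p = 0.000347), to a mean of 6.89 with miR-294 against 7.35 with mock. On miR-294 replicate 3 Ankrd44 read 6.77, below the 40th percentile of that array (6.90), so its level with miR-294 is near the filter line. Ankrd28 differed by -0.11 (SE 0.04, adjusted p = 0.0542) and did not pass, but it passed under quantile normalization (0.0443), the stricter filter (0.0311) and an intensity trend with a robust prior (0.0229; up to 0.175 over the alternatives).

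With let-7c, Ago2 (-0.43), Ago1, Ankrd28 (-0.17) and Ppp6r1 (-0.16) fell, Ankrd44 rose (0.25), and the other 5 of 10 did not pass (median -0.08), beside 28.7% called and 14.8% called lower among all genes. The count of 5 was 3 when let-7c replicate 2 or mock replicate 3 was left out, and under quantile normalization. Ankrd44 lost its call when let-7c replicate 2 (0.0795) or mock replicate 3 (0.0856) was left out and under quantile normalization (0.0539; lowest 0.00262). That of Ppp6r1 held in 8 of 15 alternatives (0.00893 to 0.0889) and ended without let-7c replicates 1 or 2 or any mock array.

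**Figure D4:**
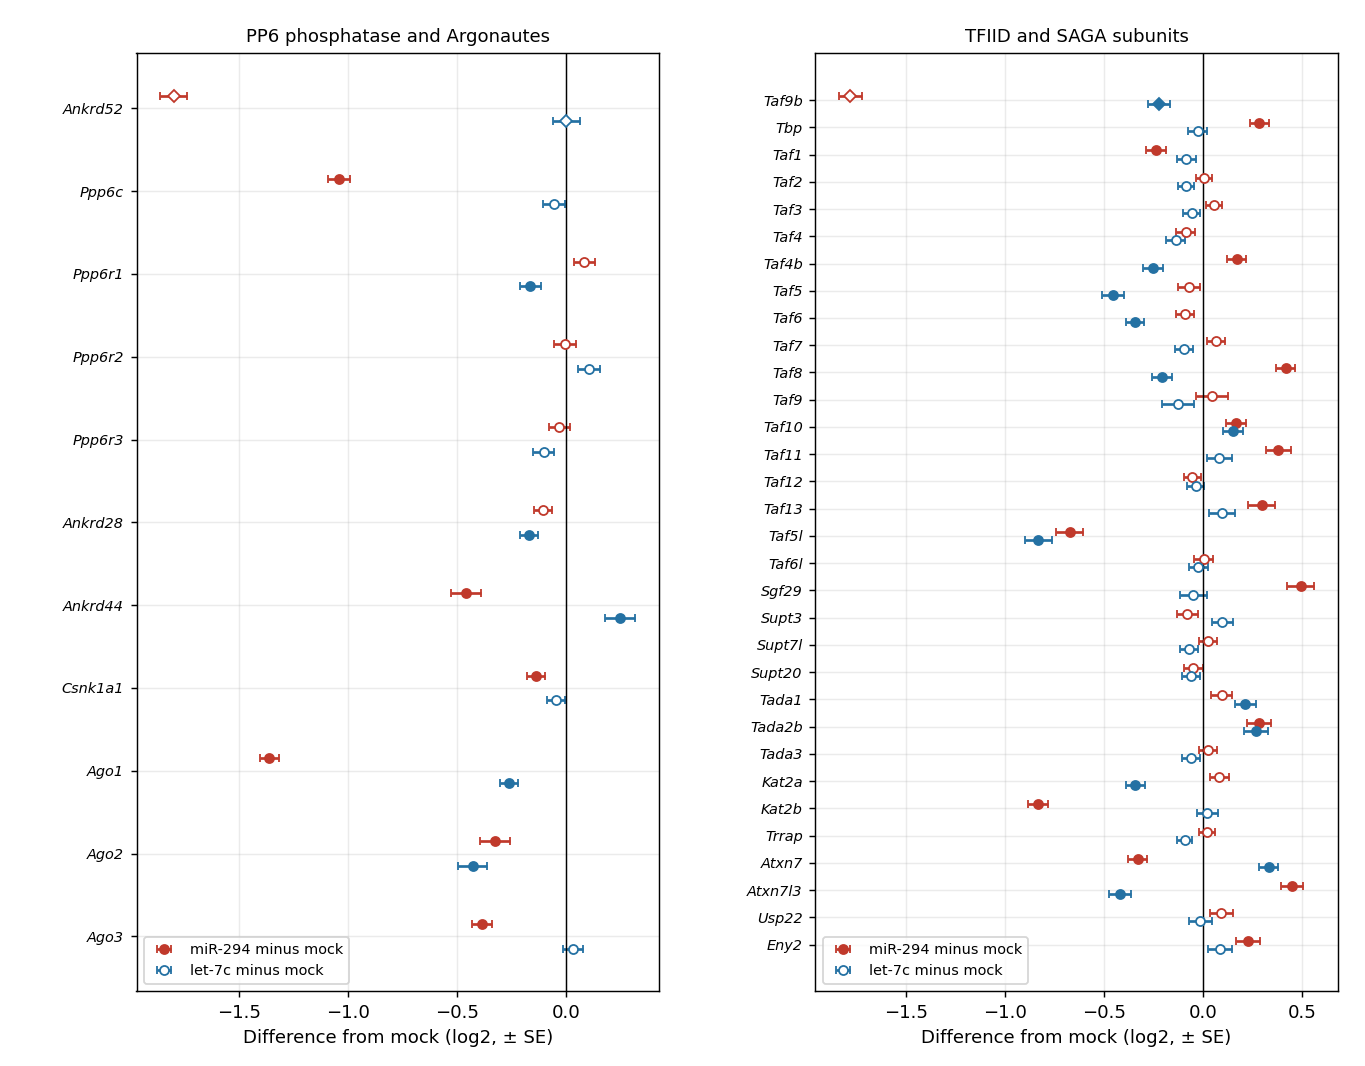
Differences from mock (log2, horizontal axis, ± SE) with miR-294 (red) and let-7c (blue) for the protein phosphatase 6 and Argonaute genes (left, with Ankrd52 on top) and the TFIID and SAGA subunits (right, with Taf9b on top). Filled symbols passed an adjusted p of 0.05, open symbols did not or, for the red diamonds, were not tested; Ppp6c and Ago1 lie at -1.04 and -1.36 with miR-294.

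Published partners of Dazap2 were set beside it. Dazap1, an RNA-binding protein that shares with Dazap2 its discovery through DAZ, did not pass the threshold with miR-294 (0.07 ± 0.04, adjusted p = 0.241) or let-7c (0.01 ± 0.04, adjusted p = 0.847). Of 8 tested genes of this list, 3 fell with miR-294, 1 rose and 4 did not pass, beside 41.9% called and 21.1% called lower among all genes. The median was -0.015, against 0.02 over all genes, with members on both sides of it. Sox6 (-0.33), a developmental transcription factor gene, and Tcf7l2 (-0.27), for a Wnt pathway transcription factor, fell. The kinase gene Hipk2 (-0.14, adjusted p = 0.0493) and the Wnt factor gene Lef1 (0.185, adjusted p = 0.0473) were at the threshold. The call of Hipk2 held in 6 of 15 alternatives (0.0116 to 0.162) and that of Lef1 in 5 of 14 (0.00297 to 0.173). Without miR-294 replicate 2 or any mock array neither remained called, and the count was then 2; Hipk2 also lost its call without miR-294 replicate 1, and Lef1 without miR-294 replicate 3.

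With let-7c 2 of the 8 rose, Sox6 (0.28, adjusted p = 0.013) and Tcf7l2 (0.15, adjusted p = 0.0178), and 0 fell, beside 28.7% called among all genes. Sox6 lost its call without mock replicate 2 (0.0546) or 3 (0.0536; lowest 0.0026) and Tcf7l2 without mock replicate 1 (0.0574) or 3 (0.06; lowest 0.00852), so the count was 0 without mock replicate 3 and 1 without mock replicate 1 or 2.

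Of the other sialomucins set beside Tmem123, 5 of 8 were tested and only Cd164 passed the threshold in these fits, with either mimic, beside 41.9% of all genes called with miR-294 and 28.7% with let-7c. Cd164 read 11.74, 11.70 and 11.71 with miR-294, 11.82, 11.75 and 11.78 with let-7c and 12.00, 11.97 and 11.96 with mock. It fell by 0.26 (SE 0.04, adjusted p = 0.000497) with miR-294 and by 0.20 (SE 0.04, adjusted p = 0.00524) with let-7c. With the replicate block Muc1 passed as well with let-7c (0.19, adjusted p = 0.0269), which made 2 of 5. Muc1 read 6.73 and 6.79 on mock replicates 1 and 3, below the 40th percentile of those arrays (6.84 and 6.86). It was also below that line on all miR-294 arrays (6.86, 6.82 and 6.65) and above it on all let-7c arrays (7.02, 7.11 and 6.90). The list's medians were 0.00 with miR-294 and 0.02 with let-7c.

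Published targets of the miR-290 family give a scale for the 4 genes. Of 11 tested, 10 fell with miR-294 and Dkk1 rose (0.14), beside 41.9% called and 21.1% called lower among all genes. The median was -0.98, against 0.02 over all genes. They come from general knowledge of the field, and since some were probably identified in cells of this kind their count is no independent evidence of direction. Their differences ran from -1.54 (Lefty1, a Nodal antagonist) to 0.14, and other large falls were those of Ei24 (-1.42), Rbl2 (-1.22) and Casp2 (-1.20). Dazap2, Tmem123 and Ankrd52 lay below that range, and they had been selected on this difference. The difference of Taf9b (-1.78), selected in the same way, lay below it too, but its reading with miR-294 is not shown to be above background. The call of Dkk1 held in 7 of 14 alternatives (0.0164 to 0.126) and ended without miR-294 replicates 2 or 3 or without mock replicates 1 or 2. On mock replicate 1 Dkk1 read 6.81, below the 40th percentile of that array (6.84). With let-7c, Lefty1 (-1.17), Lefty2 (-0.82) and Casp2 (-0.15) fell and Rhoc (0.52) and Tgfbr2 (0.43) rose, beside 28.7% called among all genes, and the median was 0.09. The call of Casp2 with let-7c held in 7 of 15 alternatives (0.0197 to 0.121) and ended without any 1 of the 6 arrays compared.

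The genes nearest to each of the 4 in their pattern were found from the root mean square difference over the 9 arrays. Each gene was first centred on its own mean. The measure is not scaled, so it depends on the size of the difference that chose the 4 genes. Nearest to Dazap2 were Uchl1 (0.112), Tbc1d8b (0.161) and Tmem123 (0.255). Pearson's r with Dazap2 was higher for Tmem123 (0.996) than for Tbc1d8b (0.991). Nearest to Tmem123 were Ankrd52 (0.0868), 9530068E07Rik (0.111) and Taf9b (0.157). Ankrd52 had 9530068E07Rik (0.0867), Tmem123 and Taf9b (0.141) as its nearest. For Taf9b they were 9530068E07Rik (0.109), Ankrd52 (0.141) and Hp1bp3 (0.141), which encodes a linker-histone-like protein and differed by -1.48 between miR-294 and mock. Pearson's r with these neighbours was 0.988 to 0.998 over the 9 arrays, which form 2 clusters, the miR-294 arrays and the other 6, so r is given as a description. Among the 4 genes themselves, Tmem123 and Ankrd52 were closest (0.0868) and Dazap2 and Taf9b farthest apart (0.359).

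**Figure D5:**
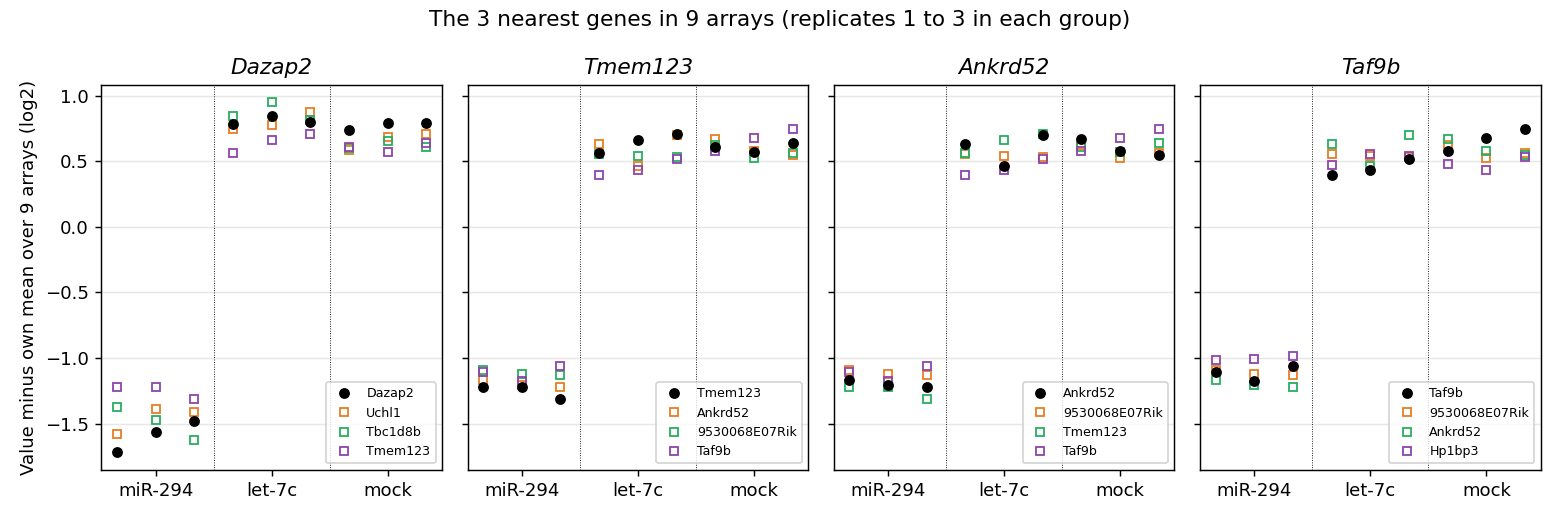
Log2 value minus the gene's own mean over the 9 arrays (vertical axis) for each of the 4 genes (black) and its 3 nearest genes (open squares), array by array within the miR-294, let-7c and mock groups. All genes shown sit low on the miR-294 arrays and high on the other 6. By root mean square difference Uchl1 and Tbc1d8b lie nearest to Dazap2, at 0.112 and 0.161.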

How the data were processed

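RNA of 9 samples was measured on 1-colour arrays. The deposited table covers 35557 probe sets, each with 1 value per array. The authors made these log2 values with GCRMA, which corrects background, normalizes and summarises, per the submitters' processing notes; no version is stated there. No header states the scale; the range of the values is that of log2 intensities. No depth applies, and the number of arrays limits the precision.

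Probe sets with 1 gene symbol in GEO's annotation were used (21789; 1621 had several symbols and 12147 none), symbols were updated through RefSeq gene IDs, and the probe set with the highest mean was taken per gene. Genes above their array's 40th percentile on at least 3 arrays were tested (13182, 66.1%). All adjusted p-values are two-sided and come from limma 3.58.1 in R 4.3.3 (lmFit and eBayes on all 9 arrays, 3 group means, Benjamini-Hochberg over all tested genes, threshold 0.05). The code recovered known changes when tested on simulated data. ± after a difference is its SE.

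Members, lists and tests were chosen with earlier results of these data known. Named genes are the 4 genes, their paralogs or closest partners, the called genes that changed most, at most 4 in a list and comparison, their neighbours in the order of falls, and the 3 nearest genes of each. Ppp6r1, Csnk1a1, Dkk1, Col1a1, Col1a2, Col3a1, Thy1, Muc1, Cd34 and Lats2 were named after their values were seen. So were Ago2 with miR-294 and Casp2 with let-7c. Lists were counted without a set test. Trp53, Eif4g1 and Cdkn1a had no probe set of their own with 1 symbol, and Ago4, Il17rb, Emcn, Podxl2 and Cd34 were too dim to be tested. Same-numbered arrays deviated together between let-7c and mock (r = 0.133 to 0.418) and between miR-294 and mock (0.272 to 0.363). Between miR-294 and let-7c r was 0.0285 to 0.248. The labels state no pairing, and arrays of different numbers were not compared in this way, so pairing by number is not established. The fibroblast markers Col1a1 (8.58, 8.59 and 8.41) and Col1a2 (8.05, 8.14 and 7.97) read highest on replicate 1 of miR-294, let-7c and mock. Col3a1 and Thy1 did not do so in every group, and what sets replicate 1 apart was not tested. The reported fit does not use the replicate numbers, and the replicate block does. Alternatives were a replicate block, quantile normalization, centring on the 75th percentile, no filter or a stricter filter (60th percentile), the mean of probe sets, every probe set tested, an intensity trend with robust prior, only the 6 arrays compared, and leaving out each array.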

Additional observations from a re-analysis of the deposited data

How the results depend on the processing

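The differences of miR-294 from mock and from let-7c kept their sign for all 4 genes under all 15 alternatives each and moved by less than the SD between replicates: -2.42 to -2.30 for Dazap2, -1.87 to -1.82 for Tmem123, -1.82 to -1.76 for Ankrd52 and -1.83 to -1.74 for Taf9b against mock. With let-7c, Dazap2, Tmem123 and Ankrd52 stayed on the same side of the threshold under all 15 (lowest adjusted p 0.295, 0.260 and 0.396). Taf9b did so under 14 and ran from -0.27 to -0.18 when single arrays were left out, the weakest without mock replicate 3. The replicate block left the value of Taf9b at -0.22 (adjusted p = 0.0045). Among the lists it added Muc1 (2 sialomucins called with let-7c) and Lats2 (adjusted p = 0.0331 with let-7c) and changed no other call of a listed gene. With no filter 2 sialomucins were called with let-7c, Cd164 and Cd34, of which Cd34 was too dim for the reported fit. Without the filter 2 partners of Dazap2 were called with miR-294, Sox6 and Tcf7l2, and the same 2 under quantile normalization. Under that normalization 3 phosphatase and Argonaute genes were called with let-7c. Leaving out single arrays gave 3 to 5 phosphatase and Argonaute genes with let-7c, 0 to 2 partners of Dazap2 with let-7c and 2 to 4 with miR-294. Under no filter more genes are tested, and without an array fewer samples are. The cause under quantile normalization was not tested. The shares of all genes called under these settings are not given here, so nothing is read from these counts.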
